A study of Mus musculus with 108 samples.

Results

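CpG-rich bins far from any transcription start site (TSS) were the 200 bp bins of the autosomes that held 12 or more CpG dinucleotides and whose midpoint lay over 5 kb from every RefSeq TSS. The choice used the mm10 sequence and the annotation alone, and no histone mark entered it. Of 11979192 assembled autosomal bins, 78900 held 12 or more CpG. Of these, 25026 lay over 5 kb from a TSS (0.209% of all bins) and 53874 lay nearer.

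Most CpG in mammalian DNA is methylated and has been lost by mutation, and clusters of CpG that escaped this, called CpG islands, mark the promoters of many genes. Islands that lie away from annotated promoters, called orphan islands, include unannotated start sites, enhancers and exons. Others sit in gene bodies of developmental regulators, where Polycomb complexes bind unmethylated CpG and trimethylate H3K27. Young copies of transposable elements are also CpG-rich, but their CpG is usually methylated and their histones lack active marks.

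The chromatin states came from livers of C57BL/6 female mice, fixed in formalin and embedded in paraffin. The 3 groups were SD 3m (standard diet, 3 months of age, 8 mice), SD 12m (standard diet, 12 months, 8 mice) and CR 12m (30% caloric restriction begun at 3 months, 12 months of age, 9 mice). H3K4me3, H3K27me3, H3K27ac and H3K4me1 were profiled by ChIP-seq, with 5 to 9 libraries for each mark and group. The libraries of a group were merged before the states were called with ChromHMM, so each group had 1 state per bin and no test across mice could be made. Whole liver was used, so a state reflects a mixture of hepatocytes and other cells, and a change in cell makeup and a change within cells cannot be told apart. The SD 6m group was not analysed here.

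The 8 states were active TSS (state 1, H3K4me3 with H3K27ac), flanking TSS (state 2, both marks with H3K4me1), active enhancer 1 (state 3, H3K27ac with H3K4me1), active enhancer 2 (state 4, H3K27ac), poised enhancer (state 5, H3K4me1), repressed Polycomb (state 6, H3K27me3), repeats and constitutive lamina-associated domains (state 7, weak H3K4me3 and little H3K27me3) and quiescent (state 8, none of the marks). Where 3 values follow each other without group names, they stand for SD 3m, SD 12m and CR 12m. Intervals given in brackets below are Wilson 95% intervals over bins. They cover counting error only, and neighbouring bins are not independent.

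The sequences below are 1 bin from each of 6 state patterns that the results turn on. Each is the bin with the most CpG of its pattern in a named cluster, so a high CpG number follows from the choice. The first 5 held 30 to 43 CpG while their states differed, and the sixth held fewer. They are read from GRCm38.p6 (the assembly of mm10), plus strand, 5′ to 3′, with every CpG in capitals. The first 3 were in an active state in SD 3m, the next 2 in state 6 in at least 1 age, and the last in state 8 throughout.
chr13:48546401-48546600 (state 1 in every group, upstream of Mirlet7a-1): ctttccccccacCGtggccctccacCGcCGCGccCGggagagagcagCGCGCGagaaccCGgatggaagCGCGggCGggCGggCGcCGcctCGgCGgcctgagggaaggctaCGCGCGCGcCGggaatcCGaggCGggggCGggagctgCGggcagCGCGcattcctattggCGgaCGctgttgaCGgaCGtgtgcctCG
chr15:68362801-68363000 (state 4 in every group, upstream of Mir30d): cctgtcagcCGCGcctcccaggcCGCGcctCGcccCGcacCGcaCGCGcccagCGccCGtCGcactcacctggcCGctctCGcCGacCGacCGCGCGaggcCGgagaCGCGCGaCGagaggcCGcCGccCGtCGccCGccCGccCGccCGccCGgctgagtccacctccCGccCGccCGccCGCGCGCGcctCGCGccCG
chr4:133038801-133039000 (state 1 at 3 months, 4 or 3 at 12 months, intron of Ahdc1): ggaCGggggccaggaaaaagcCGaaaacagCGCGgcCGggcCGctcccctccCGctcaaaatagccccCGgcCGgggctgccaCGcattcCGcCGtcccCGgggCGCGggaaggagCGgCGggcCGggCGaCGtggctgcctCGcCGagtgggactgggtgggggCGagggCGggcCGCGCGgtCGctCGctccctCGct
chr4:21679001-21679200 (state 6 in every group, coding exon of Prdm13): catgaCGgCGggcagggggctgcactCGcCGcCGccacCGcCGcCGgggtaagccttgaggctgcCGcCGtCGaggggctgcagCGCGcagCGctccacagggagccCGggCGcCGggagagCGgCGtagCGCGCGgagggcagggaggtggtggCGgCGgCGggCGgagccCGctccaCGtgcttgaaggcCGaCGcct
chr7:63758201-63758400 (state 8 in SD 3m and 6 in both 12-month groups, coding exon of Otud7a): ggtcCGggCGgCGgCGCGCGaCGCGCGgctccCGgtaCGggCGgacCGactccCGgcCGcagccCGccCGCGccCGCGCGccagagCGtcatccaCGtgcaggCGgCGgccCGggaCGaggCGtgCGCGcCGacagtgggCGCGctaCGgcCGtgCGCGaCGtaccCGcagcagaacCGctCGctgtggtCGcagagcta
chr3:93280401-93280600 (state 8 in every group, coding exon of Flg): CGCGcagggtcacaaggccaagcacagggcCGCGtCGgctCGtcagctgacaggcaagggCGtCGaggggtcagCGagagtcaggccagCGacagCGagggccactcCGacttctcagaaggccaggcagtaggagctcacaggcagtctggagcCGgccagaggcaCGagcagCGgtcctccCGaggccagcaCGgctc
The first bin held 33 CpG, the second 43, the third 30, the fourth 30, the fifth 42 and the sixth 17. All 50-base windows of the first 5 bins occurred once in the genome, and none of the sixth did.

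Repeats made up most of the set. In the assembly 16723 of the 25026 bins (66.8%) were over 50% soft-masked as repeats, against 27% of all autosomal bins and 2.78% of the CpG-rich bins within 5 kb of a TSS. The reads were 50 bases long, and reads that mapped equally well to several places were removed. The share of a bin's 151 windows of 50 bases that occur once in the genome thus limits how much reads inside it could show. In 9842 bins (39.3%) no window was unique, and their windows had a median of 587 copies. In 7610 bins (30.4%) at least 90% of windows were unique, and these are called bins of unique sequence here. The same held for 94.1% of the CpG-rich bins near a TSS. Bins of unique sequence had a median of 13 CpG, 61% GC and a ratio of observed to expected CpG of 0.804. They lay a median of 15.3 kb from the nearest TSS, the other 17416 a median of 43.2 kb.

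Both kinds were spread over all 19 autosomes in different proportions. Chromosome 11 had the most bins of unique sequence for its length, 9.53 per 10000 bins, and chromosome 14 the fewest, 3.03 per 10000. The whole set ranged less widely, from 18.2 per 10000 bins on chromosome 14 to 25 on chromosome 4.

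Over all 25026 bins the quiescent state dominated. State 8 held 78.2% (77.7 to 78.7), 67.3% (66.8 to 67.9) and 73.1% (72.6 to 73.7). Over all autosomal bins it held 65%, 50.5% and 61.1%. CpG-rich bins near a TSS gave the opposite picture, with 44.8% in state 1 and 14.3% quiescent at 3 months. Far from TSS, state 1 held 228 bins (0.911%), 201 (0.803%) and 140 (0.559%), against 0.441%, 0.389% and 0.32% of all autosomal bins. State 6 held 6.72% (6.41 to 7.03), 8.15% and 6.79%, against 8.49%, 12.7% and 9.68% of all autosomal bins.

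**Figure D1:**
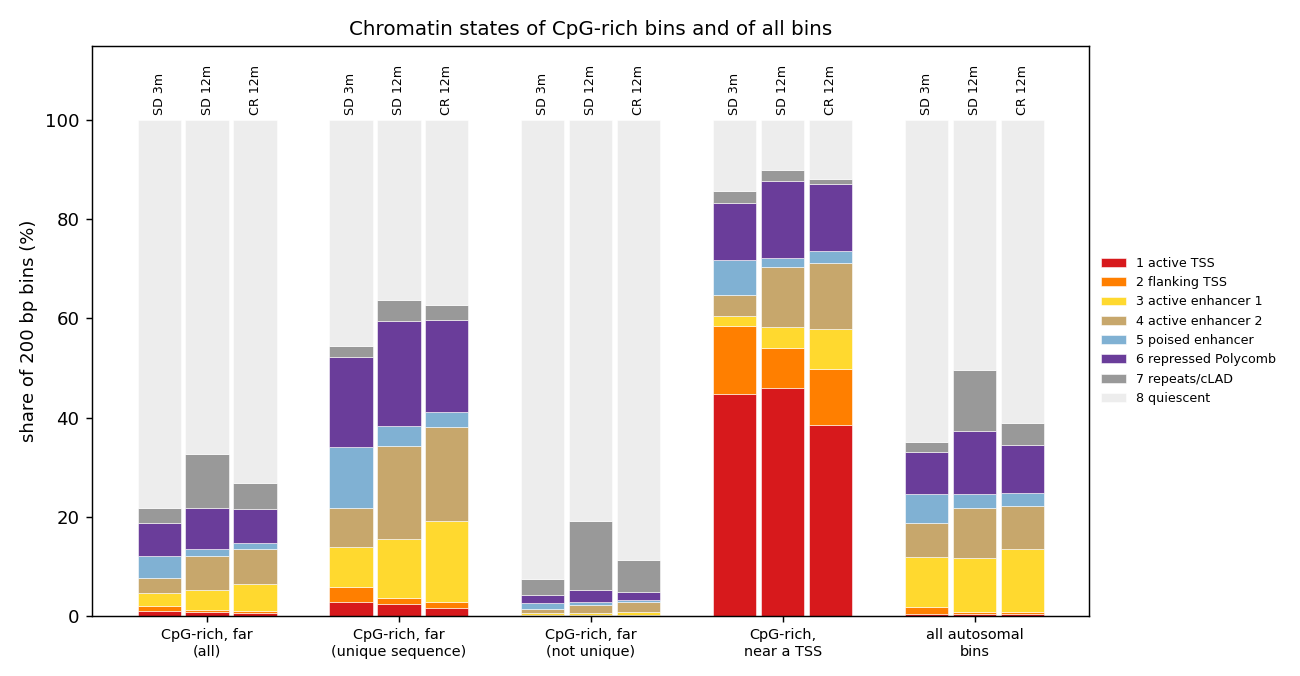
Stacked bars give the share of 200 bp bins in each of the 8 states, for the 3 groups within 5 sets of autosomal bins. State 8 (light grey) held 78.2% of all CpG-rich bins far from TSS in SD 3m but 45.5% of those of unique sequence, and 44.8% of CpG-rich bins near a TSS were in state 1 (red).

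Between SD 3m and SD 12m 5713 of the 25026 bins had another state, 22.8% (22.3 to 23.4), against 32.8% of all autosomal bins. Between SD 3m and CR 12m 4694 bins did, 18.8% (18.3 to 19.2), against 24.8% of all bins. The groups of the same age differed in 4239 bins, 16.9%, against 25%. Across the autosomes the share ranged from 17.8% (chromosome 14) to 29.4% (chromosome 11) for SD 12m against SD 3m.

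How much of a bin could be read moved with its state. In SD 3m state 8 held 95.8% of the bins with no unique window, 77.2% of those with 50 to 90% unique windows and 44% of those in which every window was unique. State 6 held 0.935%, 5.26% and 19% of these bins in turn. The share with another state in SD 12m was 13%, 30.1% and 36.1%, and in CR 12m 7.04%, 23.9% and 37.6%. Reads lying wholly inside a bin with no unique window were removed, so state 8 there does not show that the marks were absent. Some of these bins had a marked state even so, with 2.75% in state 7 in SD 3m and 11.1% in SD 12m. How they came by it was not tested. Uniqueness and repeat content moved together, but not wholly. Among the 625 bins of unique sequence that were over 50% soft-masked, 58.4% were in state 8, against 94% of the 16098 masked bins that were not unique. Of the 677 bins without a masked base that were not unique, 70.9% were. The part of uniqueness in these states was not tested.

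**Figure D2:**
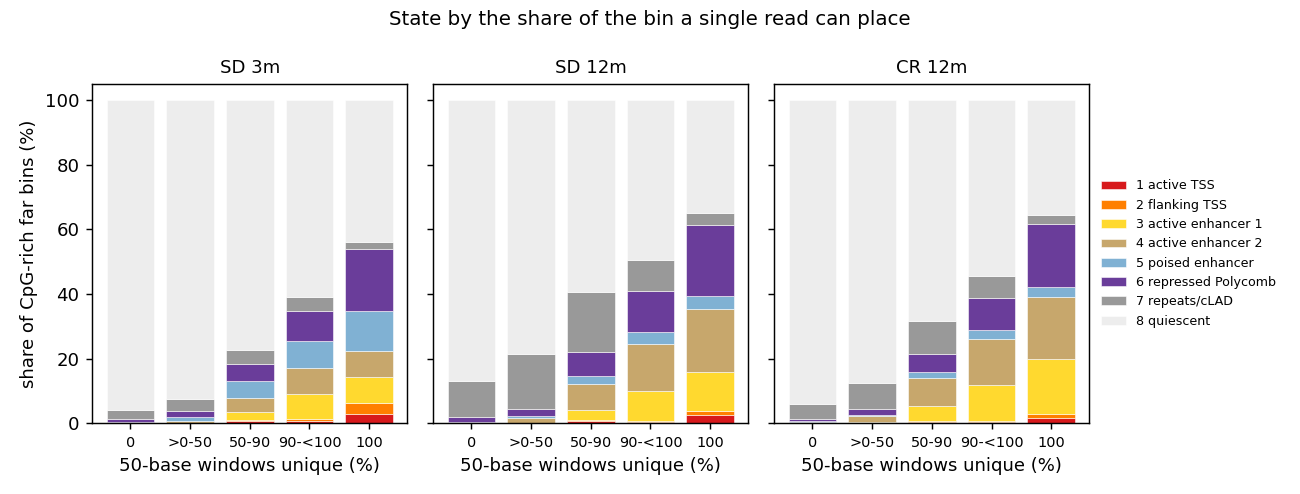
Bars give the states of the 25026 CpG-rich bins far from TSS by the share of their 50-base windows that occur once in the genome, with 1 panel per group. State 8 went from 95.8% of bins with no unique window to 44% of wholly unique bins in SD 3m, and state 7 (dark grey) held 11.1% of bins with no unique window in SD 12m.

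The bins of unique sequence, in which reads could be placed, held more of most regulatory states. In SD 3m 2.75% were in state 1 (2.4 to 3.14), 3.06% in state 2, 8.09% in state 3, 7.87% in state 4, 12.2% in state 5 and 18.2% in state 6 (17.3 to 19). States 1, 2, 5 and 6 each held a larger share than over all autosomal bins on 19 of 19 autosomes, and state 8 a smaller one on 19 of 19. State 3, with 10.2% over all bins, held a larger share on 3 of 19. The share of these bins with another state at 12 months was 35.8% for SD 12m (34.8 to 36.9) and 37% for CR 12m (35.9 to 38.1). Against the 32.8% and 24.8% of all bins, bins of unique sequence were above the background and the whole set below it. Unique CpG-rich bins near a TSS gave 31.2% and 35.5%. The uniqueness of bins outside the CpG-rich sets was not computed, so this background mixes both kinds of sequence. All 3 groups gave the same state in 4077 unique bins (53.6%), SD 3m alone stood apart in 1723 (22.6%), SD 12m alone in 718 (9.43%) and CR 12m alone in 805 (10.6%). Over all autosomal bins the same 4 shares were 59.8%, 15.2%, 15.3% and 7.41%.

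The number of CpG separated the states within the unique sequence. From bins of 12 to 13 CpG to bins of 20 to 29, the share in states 1 or 2 in SD 3m went from 3.03% (2.53 to 3.61) to 13.1% (11 to 15.6). State 6 went from 15.4% (14.3 to 16.6) to 26.5% (23.7 to 29.6), and state 8 from 50.3% to 31.5%. The same order held in both 12-month groups. In the bins with 30 or more CpG state 6 held 27.8% in SD 3m (20.7 to 36.2), 42.1% in SD 12m (33.8 to 50.8) and 31% in CR 12m (23.5 to 39.5), so that those intervals overlapped.

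Near TSS the relation of Polycomb to CpG was reversed. There state 6 went from 13.9% of unique bins with 12 to 13 CpG to 10.9% of those with 20 to 29, and states 1 or 2 from 51.7% to 66.7%. At 20 to 29 CpG an autosomal bin of unique sequence was thus in state 6 in 26.5% of cases far from TSS and in 10.9% near them. These intervals did not overlap (23.7 to 29.6 and 10.4 to 11.4). Near TSS, unique bins with 30 or more CpG had 10.4% in state 6 and 56.4% in states 1 or 2 in SD 3m.

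**Figure D3:**
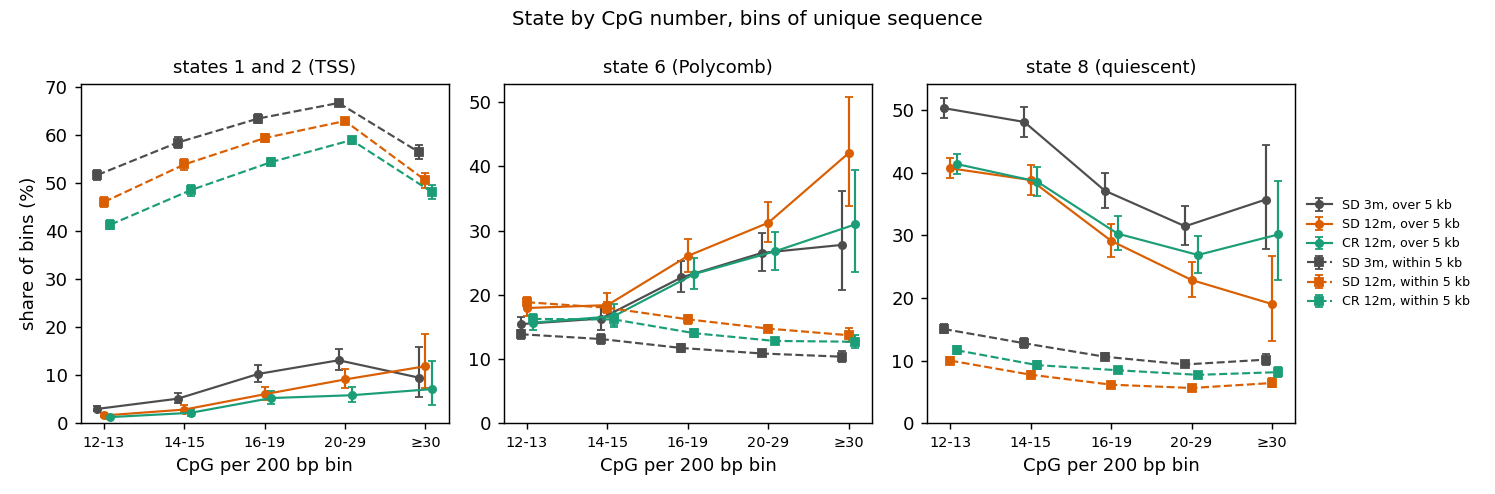
Share of unique-sequence bins in states 1 or 2, state 6 and state 8 by the number of CpG per bin, over 5 kb (circles, solid lines) and within 5 kb of a TSS (squares, dashed lines), with Wilson 95% intervals as bars. In all 3 groups state 6 was more frequent at 20 to 29 CpG than at 12 to 13 far from TSS (15.4% to 26.5% in SD 3m) and less frequent near TSS (13.9% to 10.9%).

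The states also differed with distance. Among bins of unique sequence, states 3, 4 and 5 together held 33.6% of those 5 to 10 kb from a TSS in SD 3m and 5.47% of the 311 bins over 100 kb away, and state 8 held 35.4% and 80.1%. States 1 or 2 held 6.75% at 5 to 10 kb, 5.55% at 20 to 50 kb and 0.643% beyond 100 kb. At 50 to 100 kb they held 5.65%, and 2.84% without the ribosomal RNA cluster described below. State 6 was at 23.1% nearest and 11.3% farthest in SD 3m. In SD 12m the farthest bins had 20.6% in state 6 and 20.9% in state 7, against 13.5% and 10.3% in CR 12m.

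They differed with position in the gene as well. Of the unique bins, 2895 lay in coding exons of 1583 genes, 487 in other exons, 1861 in introns and 2367 between genes. Intergenic bins had the most of states 1 or 2 in SD 3m, 12.1%, and the most of state 6, 25.3%. Of coding-exon bins 13.7% were in state 6 and 54.2% in state 8. At 12 months coding-exon bins had the most of state 4, with 24.4% in SD 12m and 26.9% in CR 12m, against 9.46% in SD 3m.

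Bins in the active TSS state away from every RefSeq TSS were few in number. In all 3 groups 90 bins in 47 clusters (neighbouring bins at most 400 bp apart) were in state 1. That was 0.36% of the set, against 0.206% of all autosomal bins. Of the 47 clusters, 32 were intergenic and 8 intronic. The cluster with the most CpG in such bins, 6 bins of chr13:48545401-48547000, lay 8.23 kb upstream of Mirlet7a-1, a gene of the let-7 microRNA family that restrains cell growth. The next, 5 bins of chr14:61648001-61649400 in an intron of Dleu2, lay 16.2 kb upstream of Mir15a, a microRNA that targets Bcl2. The third, on chr15:85670201-85672200, lay 32.3 kb upstream of Lncppara, a long noncoding RNA. It had 5 of its 10 bins in state 1 in SD 3m and all 10 in SD 12m and CR 12m. The nearest TSS gene was a microRNA for 15 of the 79 unique bins in state 1 in all groups (19%, 11.9 to 29, from 5 clusters), against 2.89% of all unique bins.

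A second annotation was set beside these bins after their states were seen. A GENCODE (release M21) transcript start lay within 1 kb of 36.8% of the state 1 bins of SD 3m (30.8 to 43.3) and of 34.2% of the state 2 bins, against 9.19% of the whole set. Among unique bins the shares were 35.9% for state 1, 15.4% for state 6 and 18.4% for state 8. Of the 47 clusters in state 1 throughout, 20 lay within 1 kb of such a start, and 27 did not. The 20 included all 5 clusters whose nearest TSS gene was a microRNA (Mirlet7a-1, Mir15a, Mir23a, Mir30a and Mir30d). Each of these lay at most 0.676 kb from a GENCODE start.

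Promoter motifs were counted in the same bins on both strands. The GC box GGGCGG, bound by SP1, was in 57% of the 79 unique bins in state 1 in all groups, 34.7% of the 901 in state 6, 20.5% of the 1992 in state 8, 53% of unique CpG-rich bins near a TSS and 2.01% of all autosomal bins. The ETS motif CCGGAAG was in 7.59% (6 bins), 2.66% and 3.41% of the 3 unique sets far from TSS. It was in 6.97% of unique bins near a TSS and 0.579% of all bins. It was in 9.16% of the whole set. The CTCF core CAGGGGGCG was in 1.21% of unique bins far from TSS and 1.71% near, and the NRF1 motif GCGCATGCG in 1.51% and 1.14%. In the 3 unique sets (state 1, 6 and 8 in turn) the CTCF core was in 3.8% (3 bins), 1.78% and 0.753%. The NRF1 motif was not commonest in state 1, with 1.27% (1 bin), 1.11% and 1.71%. A match is a string of letters and not a bound site. Each motif holds a CpG itself. Over the whole set, bins in state 1, 6 or 8 in all groups had a median of 18, 14 and 13 CpG. The part of CpG number in the motif shares was not tested.

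The flanking TSS state had 1 large contributor. The cluster with the most CpG of all, 27 bins with 570 CpG on chr17:39843001-39848800, was in state 2 in all 27 bins in each group. It covers Rn18s-rs5, annotated as an 18S ribosomal RNA sequence, and overlaps the long noncoding RNA AY036118. All 27 kept state 2, and 22 of them were of unique sequence. Without this cluster state 2 held 216, 75 and 64 bins of the whole set. As background, mice carry many copies of ribosomal DNA and most are missing from the assembly. Their part in this label was not tested.

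In 188 bins of 133 clusters (0.751% of the set) a TSS state in SD 3m was replaced by another state in both 12-month groups, against 0.812% of all autosomal bins. The largest cluster, 7 bins with 159 CpG on chr4:133038401-133039800 in an intron of Ahdc1, had state 1 in 4 bins and state 2 in the rest at 3 months, and state 3 in 4 bins in SD 12m and 5 in CR 12m. A cluster of 4 bins on chr2:30707601-30708400, 13.1 kb from Gm14488, and another of 4 on chr14:65343401-65344200, 15 kb upstream of the zinc finger gene Zfp395, were in state 3 in all 4 bins in both older groups. State 2 differs from state 3 in H3K4me3, and state 1 differs from it in H3K4me1 as well. Among the 209 unique bins that had state 1 at 3 months, 59.8% (53 to 66.2) kept it under standard diet and 41.6% (35.2 to 48.4) under caloric restriction. State 1 was kept by 61.4% and 51.5% of the state 1 bins of all autosomes, and by 87.1% and 75.4% of the CpG-rich ones of unique sequence near a TSS. Of the 233 in state 2, 37.3% were in state 2 in SD 12m and 31.3% in CR 12m, and 48.1% and 58.4% were in state 3. Over all autosomal bins 34.7% and 28.4% kept state 2, and over unique CpG-rich bins near a TSS 48.6% and 55.3%. Without the ribosomal RNA cluster 30.8% (25 to 37.3) and 24.2% (18.9 to 30.4) kept state 2. State 2 held a smaller share of unique bins at 12 months than at 3 on 19 of 19 autosomes in both diets. Over all autosomal bins state 2 was lower at 12 months as well, with 1.24%, 0.465% and 0.396%. H3K4me3 was profiled in 7, 8 and 5 libraries, and the part of these numbers was not tested.

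The active enhancer states, without H3K4me3, were less common in the set than over all autosomal bins. In SD 3m state 3 held 2.69% against 10.2%, and state 4 held 3.01% against 6.9%. In unique sequence this did not hold throughout. There state 4 held 7.87%, 18.9% and 18.8%, against 6.9%, 10.1% and 8.8% of all autosomal bins. State 3 held 8.09%, 11.8% and 16.5%, against 10.2%, 10.9% and 12.7%. State 3 or 4 was held in all groups by 1216 bins (4.86% of the set), 27.8% of them in coding exons and 1052 of unique sequence. The share of all autosomal bins with this pattern is not given here. The cluster with the most CpG in such bins, on chr15:68362201-68363600, lay 21.6 kb upstream of Mir30d, a microRNA of the miR-30 family, with state 4 in 4 of its 7 bins at 3 months. A cluster of 3 bins in a coding exon of Exoc3l2 (chr7:19474001-19474600) and one of 4 bins in an intron of Mxi1, a MYC antagonist (chr19:53348801-53349600), were in state 4 in all bins and groups.

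Bins of the poised enhancer state kept their state least often. State 5 held 12.2%, 3.94% and 3.02% of unique bins, and was lower at 12 months on 19 of 19 autosomes in each diet. Among the 929 bins that had state 5 at 3 months, 41.6% had state 4 in SD 12m (38.4 to 44.7) and 21.2% had state 3 (18.7 to 23.9). In CR 12m 35.4% were in state 4 (32.4 to 38.5) and 38.8% in state 3 (35.7 to 41.9), while 24.4% and 14% kept state 5 in SD 12m and CR 12m. Over all autosomal bins 30.3% and 25.2% kept it. Over all unique bins state 4 held 7.87%, 18.9% and 18.8%, and state 3 held 8.09%, 11.8% and 16.5%. State 3 was lower in SD 12m than in CR 12m on 19 of 19 autosomes. Over all autosomal bins state 3 had the same order, with 10.2%, 10.9% and 12.7%, and state 4 held 6.9%, 10.1% and 8.8%. H3K4me1, the mark of state 5, was profiled in 8, 6 and 9 libraries. The share of state 5 over all autosomal bins was also lower at 12 months, 5.77%, 2.83% and 2.54%.

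**Figure D4:**
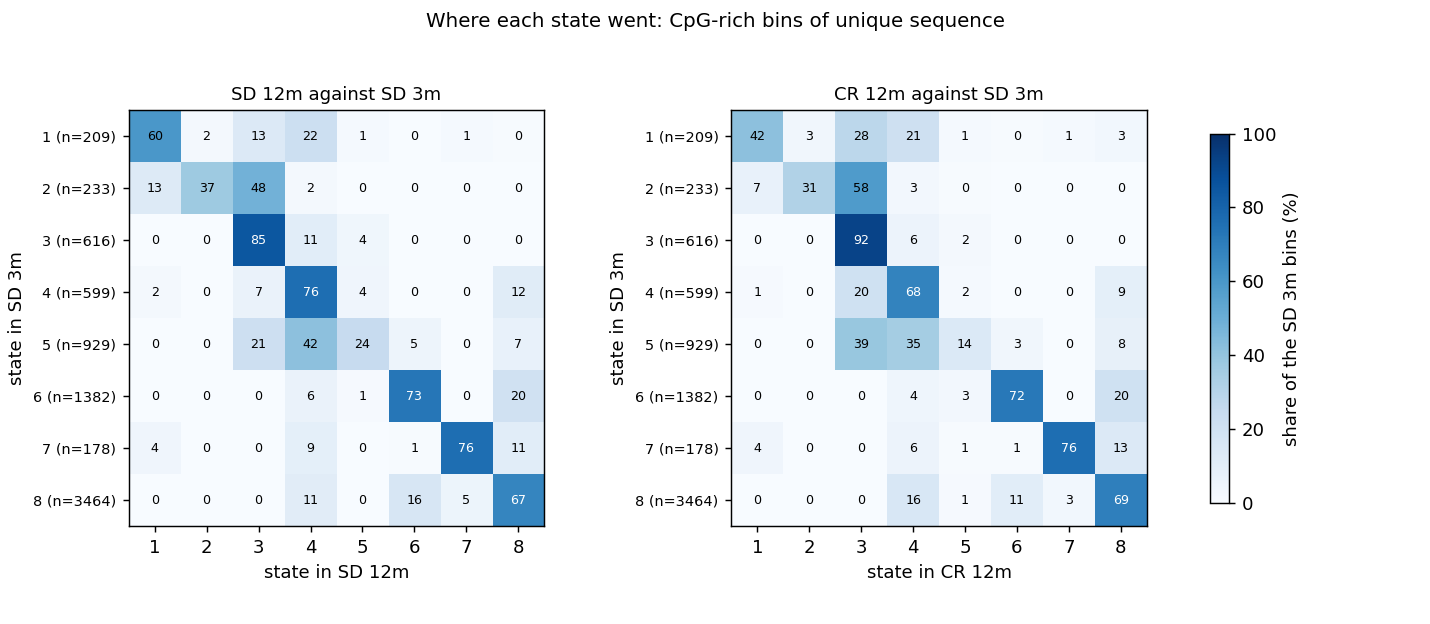
Each cell gives the share of the unique-sequence bins in a state in SD 3m (rows, with their number) that were in each state (columns) in SD 12m (left) or CR 12m (right). State 5 bins were mostly in states 3 and 4 at 12 months, and 72.8% (SD 12m) and 72.1% (CR 12m) of state 6 bins were in state 6 again.

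Polycomb repression was the commonest marked state of unique bins in SD 3m and SD 12m, while state 4 was slightly ahead of it in CR 12m (18.8% and 18.5%). Among the 1382 that had it at 3 months, 72.8% (70.4 to 75.1) kept it under standard diet and 72.1% (69.7 to 74.4) under caloric restriction, and 901 were in state 6 in all 3 groups (11.8% of unique bins, against 3.7% of all autosomal bins). Of state 6 bins over all autosomes 56.3% and 51.4% kept it, and of the unique CpG-rich ones near a TSS 84.6% and 78.1%. Of the 1382, 19.8% and 20.3% were in state 8. The 3 clusters with the most CpG in such bins were 9 bins with 192 CpG in a coding exon of Prdm13, a transcription factor of spinal cord and retina (chr4:21678201-21680000), 6 bins in a coding exon of Nrxn2, a synaptic adhesion protein (chr19:6427801-6429000), and 6 bins in another exon of Otp, a homeobox gene of the hypothalamus (chr13:94882801-94884000).

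Bins nearest to developmental transcription factors were mostly in state 6. The list held 227 genes regarded as silent in adult liver (expression was not measured here), of which 220 were found on autosomes and 94 were the nearest TSS gene of at least 1 of 287 unique bins. State 6 held 74.6% (69.2 to 79.3), 80.5% (75.5 to 84.7) and 76.3% (71.1 to 80.9) of these bins. Of the 7323 unique bins with another nearest gene, 15.9% (15.1 to 16.8), 18.8% and 16.3% were. At 12 to 15 CpG the shares in SD 3m were 75.6% and 13.8%, and over 20 kb from the TSS 57.9% and 13.5%. Of the 94 genes, 69 had a bin in state 6 in every group, 13 in no group, 7 at 12 months but not in SD 3m, and 2 in SD 3m alone.

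Among the listed genes with the most unique bins the pattern was not uniform. Otp (13 bins), Tbr1 (10), a factor of cortical neurons, and Pax7 (8), of muscle stem cells, had every bin in state 6 in every group. Uncx had 11, 10 and 9 of 11 bins in state 6. The 12 bins nearest Bcl11b, a T cell factor, were in state 8 in all groups. Those nearest Tbx2, a T-box factor, also 12, had no state 6 in any group, with 4, 0 and 2 bins in states 1 or 2. Irx5, a homeobox gene, had 2 of 6 bins in state 6 in SD 3m and 6 of 6 in both older groups, and Lhx5, another, 3 of 6 and then 6 of 6.

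Domain size set Polycomb bins apart from TSS bins. The stretch of state 6 that held a unique bin had a median length of 34.8 kb in SD 3m, 44.2 kb in SD 12m and 46 kb in CR 12m, against 28.4, 37.6 and 32.6 kb over all autosomal bins in state 6. Stretches of state 1 had a median of 0.6 kb, 0.8 kb and 1 kb. Both bins 2 kb away from a unique state 6 bin were also in state 6 in 83.2% of cases in SD 3m (78% over all state 6 bins). For state 1 both differed in 97.6% of cases, and at 2 kb upstream in the assembly 42.1% were in state 3 and 18.2% in state 2.

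**Figure D5:**
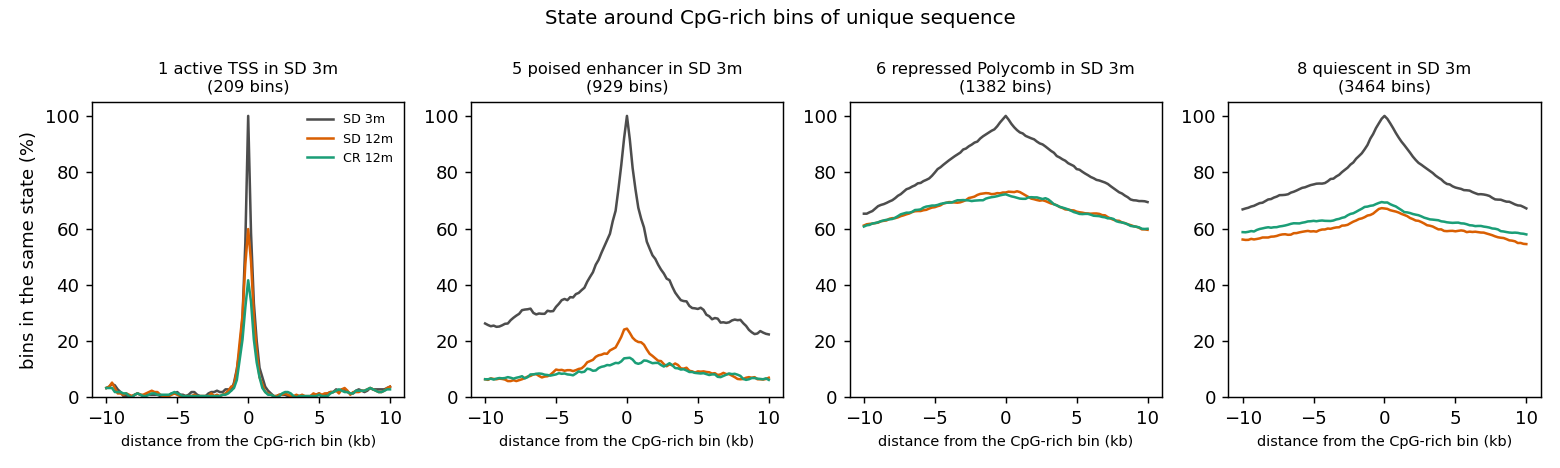
Share of bins in the same state as the central bin by distance (kb, plus strand), for unique-sequence bins in state 1, 5, 6 or 8 in SD 3m, with 1 line per group. The SD 3m line is 100% at 0 kb by construction. At 5 kb to the right state 1 held 1.44% of bins in SD 3m, while state 6 held 81.1% of bins at 5 kb in SD 3m and 66% in SD 12m.

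State 6 was taken from state 8 at 12 months more often than it was replaced by it, as it was over all autosomal bins. Of the whole set 872 bins (3.48%) that were quiescent in the young mice took state 6 by SD 12m and 563 (2.25%) by CR 12m, against 7.69% and 5% of all autosomal bins. From state 6 to state 8 went 454 (1.81%) in SD 12m and 476 (1.9%) in CR 12m, against 3.2% and 3.69%. Among unique bins 554 (7.28%, SD 12m) and 376 (4.94%, CR 12m) took state 6 from state 8, near the shares of all autosomal bins. The other way went 273 (3.59%) and 280 (3.68%), also near them. Of the 25026 bins, state 6 was new in both older groups in 381 and in SD 12m only in 491, against 3.24% and 4.45% of all autosomal bins.

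The clusters with the most CpG were followed in each direction. All 6 bins with 185 CpG in a coding exon of Otud7a, a deubiquitinase (chr7:63757601-63758800), all 7 in an intron of Rbfox3, a neuronal splicing factor (chr11:118569001-118570400), and all 4 in a coding exon of Gprin1, a protein of neurite growth (chr13:54737601-54738400), were in state 8 in SD 3m and in state 6 in SD 12m and CR 12m. State 6 in SD 12m only was seen in all 8 bins of a coding exon of Kbtbd11 (chr8:15027401-15029000), all 5 in Apba1, an adaptor of synapses (chr19:23892801-23893800), and all 5 in Kcnk12, a potassium channel (chr17:87745801-87746800). State 6 was replaced by state 8 in both older groups in 5 of 6 bins in a coding exon of the zinc finger gene Zfp697 (chr3:98427401-98428600), all 6 of a coding exon of Espnl, an espin-like actin regulator (chr1:91344601-91345800), and all 5 of an intergenic cluster 55 kb upstream of Psmd14 (chr2:61655801-61657200). In each of these 9 clusters every window of 50 bases was unique.

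Direct passage from state 8 to state 4 was seen in 443 bins in SD 12m (1.77%) and 664 in CR 12m (2.65%), against 1.63% and 1.88% of all bins. Among unique bins it made up 11.1% of the 3464 in state 8 in SD 3m for SD 12m (10.1 to 12.2) and 15.6% for CR 12m (14.4 to 16.9), against 2.51% and 2.89% of all autosomal state 8 bins. In counts this was 384 and 541 of the 3464. Unique CpG-rich bins near a TSS were also above all autosomal state 8 bins, with 502 (SD 12m) and 682 (CR 12m) of 5756.

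Passage from state 8 to state 7 was seen mainly in SD 12m. From state 8 in SD 3m, 2225 bins (8.89%) were in state 7 in SD 12m and 949 (3.79%) in CR 12m, against 10.7% and 3.4% of all autosomal bins. Of the 2225, 189 were of unique sequence, and the median distance to a TSS was 87.7 kb. Over 50% soft-masked were 90.1% of them and 79.2% of all 19571 bins of the set in state 8 in SD 3m. In SD 12m state 7 was taken by 5.46% of the unique state 8 bins and by 12.6% of the others, against 16.5% of all autosomal state 8 bins. Over the whole set state 7 held 3.01%, 11% and 5.41%, and among unique bins 2.34%, 4.32% and 3.09%. The cluster with the most CpG in such bins lay on chr10:7390601-7393800, 82.6 kb from Ulbp1, with all 11 bins in state 8 in SD 3m and CR 12m and 6 of them in state 7 in SD 12m. The next 2, 161 kb from Gm13470 on chromosome 2 and 20.4 kb upstream of Vmn2r56, a pheromone receptor gene, on chromosome 7, were 93.3% and 100% soft-masked.

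Coding exons of a few genes were in state 7 in every group. Of the 22 unique coding-exon bins of Plec, the cytoskeletal linker plectin, 20, 19 and 19 were in state 7. Fat1, a giant cadherin, had 14 of 17 in each group, and the zinc finger gene Zfp316 10 of 10. Over all unique coding-exon bins state 7 held 2.69%, 3.49% and 3.21%. These 3 genes were among those with the most coding-exon bins, a ranking that did not use the states. They were picked from the ranking after their states were seen. In the same ranking Sptbn4, a spectrin of axons, had 17 of 18 bins in state 6 in each group and Bsn, a presynaptic scaffold, 9 of 9 in state 8.

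State 8 in all 3 groups was the commonest pattern, with 15278 bins (61% of the set, against 41.6% of all autosomal bins). Of these, 83.4% were over 50% soft-masked. In unique sequence 1992 bins had the pattern, 26.2% of the unique bins and below the share of all autosomal bins. The largest clusters of the pattern were of low uniqueness. Flg, which encodes the skin barrier protein filaggrin, had 31 bins on chr3:93280401-93292800 with 426 CpG and a mean of 7.2% unique windows. Ahnak2 had 30 bins on chr12:112776001-112784400 with 9.05% unique windows. Only 3.82% of the bases in the Flg bins and 3.32% of those in the Ahnak2 bins were soft-masked. Intergenic clusters near Gm41989 (30 bins, chromosome 3) and Gm30228 (28 bins, chromosome 10) were wholly or almost wholly masked, with 3.02% and 0.662% unique windows. By nearest TSS gene the most bins fell to Flg and Gm41989 (31 each) and to AY036118, Gm30228 and Spanxn4 (28 each).

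Bins nearest to hepatocyte genes were few. Of 183 listed genes 177 were found on autosomes and 27 were the nearest gene of 45 unique bins. None of the 45 was in state 6 in any group. States 1 or 2 held 8 in SD 3m and 6 in each 12-month group, and state 3 held 2, 9 and 18 (4.44%, 20% and 40%). Over all unique bins state 6 held 18.2%, 21.1% and 18.5%, and state 3 was also higher at 12 months, with 8.09%, 11.8% and 16.5%. Foxa1, a pioneer factor of liver, had 1 of 4 bins in states 1 or 2 in SD 3m and 3 of 4 in both older groups. Ass1, which encodes argininosuccinate synthase of the urea cycle, had 2 of 4 in every group. The 3 bins 58.1 to 58.5 kb from the TSS of Insr, the insulin receptor, had 2 in states 1 or 2 in SD 3m and all 3 in states 3 to 5 at 12 months.

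Imprinted genes, expressed from 1 parental copy, gave 42 unique bins near 18 genes. State 6 held 18, 14 and 12 of them (42.9%, 33.3% and 28.6%), against 18.2%, 21.1% and 18.5% of all unique bins. Cdkn1c, a growth-restraining cell cycle inhibitor, had 8 of 9 bins in state 6 in SD 3m and 4 in both older groups. Without Cdkn1c the counts were 10, 10 and 8 of 33, so the lower count in SD 12m rested on this 1 gene. The 2 bins nearest Rasgrf1 were in state 6 throughout. The 4 bins nearest Dlk1 were in state 8 in every group. The nearest TSS is not known to be the gene that a bin acts on, and no bin was linked to expression here.

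The limits of the definition fell within a continuous range of CpG number and distance. In SD 3m bins with 11 CpG had 77.4% in state 8 and 6.31% in state 6, and those with 12 CpG 81.8% and 5.16%. Bins 4 to 5 kb from a TSS had 41.6% in state 8 and 5.97% in states 1 or 2, and bins 5 to 6 kb away 46.5% and 4.09%.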

How the data were processed

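The authors aligned 50-base single-end reads to mm10 with BWA 0.6.2-r126, removed reads that could not be placed uniquely, and duplicates (SAMtools 0.1.18), merged the libraries of each group and called 8 states with ChromHMM. The deposited files hold 1 of 8 state labels, a category and not a signal, for each run of 200 bp bins. They hold no read counts, so the depth behind a label is unknown, and 0 columns were left unmapped. The SD 6m segmentation was not analysed here.

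Bins were given their CpG number, soft-masking, gene part and distance to 76607 RefSeq start positions, predicted transcripts included, from GRCm38.p6, the assembly of mm10. The 151 windows of 50 bases in each CpG-rich bin were searched on both strands of 66 contigs, and bins with at least 90% of windows occurring once were called unique. Shares, Wilson 95% intervals and ranges over 19 autosomes were computed with Python 3.11.15, numpy 2.4.6, pandas 2.3.3 and numba 0.67.0, after a check on simulated data. With 1 segmentation a group, no test was made.

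The members, gene lists and comparisons were chosen with earlier results of these data known. Named clusters were, for each of 9 state patterns, the 3 with the most CpG in bins of that pattern, the 5 with the most CpG of all, and the 5 nearest genes with the most bins. The genes named from the lists and from the coding exons, the GENCODE starts and the motifs were chosen after values were seen. Alternatives changed the CpG minimum, the distance, the annotation, repeats, uniqueness, clustering and exons.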

Additional observations from a re-analysis of the deposited data

Results flagged for a closer look

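Chromosome X was not part of the autosomal set and its bins served no comparison above. It held 1925 CpG-rich bins over 5 kb from every TSS, and state 6 was present in 158 of them in SD 3m, 8.21% (7.06 to 9.52). They are given as a signal in data outside the comparisons. The SD 12m segmentation had 316 (16.4%) and that of CR 12m 114 (5.92%). Over all assembled bins of chromosome X its share was higher, at 28.3%, 45% and 24.6% for SD 3m, SD 12m and CR 12m. Of the CpG-rich bins 86.4% were over 50% soft-masked, with 4.99% in state 6 in SD 3m, and those without a masked base had 35.3%. The uniqueness of these bins was not computed.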

How the results depend on the processing

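Main values were 22.8% of bins with another state in SD 12m, 18.8% in CR 12m, 6.72% in state 6 and 1.88% in states 1 or 2 (both SD 3m), and are followed here in that order. With 10 or more CpG they were 24.6%, 20.7%, 6.81% and 1.24%, and with 16 or more 31%, 30.5%, 15.3% and 6.75%. Over 2 kb from a TSS they were 24.4%, 21.2%, 8.73% and 2.81%, over 10 kb 21.6%, 16.1%, 5.08% and 1.44%, and with curated RefSeq starts alone 23.9%, 20.4%, 7.63% and 3.6%. Without bins over 50% soft-masked they were 33.7%, 35.3%, 16.8% and 5.61%, and in unique sequence 35.8%, 37%, 18.2% and 5.81%. One bin per cluster gave 25%, 20.7%, 6.6% and 1.39%, and leaving out exons 20.9%, 15.3%, 5.44% and 1.88%. Leaving out the cluster with the most CpG, an alternative chosen after seeing the data, gave 22.9%, 18.8%, 6.72% and 1.78%. The order of SD 12m and CR 12m thus turned without the masked bins and in unique sequence, but the intervals overlapped. For SD 12m and CR 12m they were 32.7 to 34.7 and 34.3 to 36.3 without the masked bins. In unique sequence they were 34.8 to 36.9 and 35.9 to 38.1. The cause was not tested. No paired analysis was possible because the libraries of a group were merged before states were called, and for the same reason no replicate could be left out. Read depth is unknown and limits what state 8 can show.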
